A study of Mus musculus with 17 samples.

Results

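H3K27ac HiChIP, which captures contacts between pairs of chromatin regions of which at least one carries the active promoter and enhancer mark H3K27 acetylation, was examined at the start sites of 10 pluripotency genes: Pou5f1, Nanog, Klf4, Klf2, Zfp42, Esrrb, Sall4, Lin28a, Tdgf1 and Tbx3. A loop is a pair of anchors joined by at least 1 sequenced read pair, and an anchor is a called region whose edges are restriction sites. Loops were assigned to a gene when an anchor lay within 5 kb of any of its annotated start sites in mm9, so loops were taken by position. The 10 genes themselves were chosen with earlier results of these data known. This gave 629 of 1211657 loops, with 1137 read pairs in the bulk libraries and 450 in the sorted libraries. No loop counted for more than 1 of the 10 genes.

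All 17 libraries came from embryoid bodies (EBs) made in hanging drops from mouse embryonic stem cells, R1 by the study's methods and therefore 1 line, and treated with 0.5 µM retinoic acid (RA) until day 4. The 12 bulk libraries held unsorted EB cells. The 5 libraries labelled cluster2 are the EpCAM/CD38 double positive cells of the study, taken from the same kind of EBs by separate rounds of cell sorting. No undifferentiated cells and no untreated EBs were compared, so every difference below is between sorted and unsorted cells of the same day. Nothing in the labels says that bulk libraries came from separate cultures or double positive libraries from separate sorts. The p-values measure the spread between these libraries only.

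Pou5f1 (Oct4) and Nanog are transcription factors at the core of the network that keeps embryonic stem cells undifferentiated, and Esrrb, Klf2, Klf4, Tbx3 and Zfp42 (Rex1) belong to its naive layer. Sall4 is a zinc finger factor that acts with Pou5f1, Lin28a is an RNA-binding protein that blocks maturation of let-7 microRNAs, and Tdgf1 (Cripto) is a co-receptor for Nodal. In cells that leave pluripotency under RA most of these genes are silenced, while Sall4, Lin28a and Tdgf1 can stay active for a time in some early lineages.

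The deposited libraries held from 65148 to 241068 read pairs in joined loops (median 135054) in bulk and from 50508 to 118179 (median 85966) in double positive cells. Bulk loops used far more anchors: 15074 joined anchors were used in both groups, 200999 in bulk only and 8 in double positive cells only. An anchor within 5 kb of a coding start site took part in 49.8% of all bulk read pairs and 94.9% of all double positive ones. Levels are given as CPM, the read pairs of a gene or loop per 1000000 loop read pairs of the library. The log2 fold changes below come from edgeR with TMM scaling, under which the median of the 14115 tested genes was -0.52. With scaling to library size alone that median was 1.21, so a difference is also given relative to the median gene. Levels were also read for lists of cell type markers. The summed level of 15 extraembryonic endoderm genes was between 450.2 and 769.6 CPM in bulk and between 4832 and 6141 CPM in double positive cells. In that list 7 genes were higher, 2 lower and 6 not called, and 1 was at 0 in double positive cells, while over all tested genes 20.6% were higher and 42.8% lower. The higher genes Col4a1 and Col4a2 adjoin each other and had the same 256 double positive read pairs, which the summed level counts for both. All 8 neural genes found in the annotation were called lower in double positive cells, with sums of 722.8 to 1334 CPM in bulk against 274.3 to 482.8 CPM. Among them Hes5 had a higher mean CPM in double positive cells (199.3) than in bulk (135.3), with a TMM log2 fold change of -1.18. The rest also had a lower mean CPM in double positive cells. Neither Epcam nor Cd38, the genes of the sorting markers, passed the test, although their summed level was 93.1 to 262.3 CPM in double positive cells against 0 to 69.8 CPM in bulk. Of 5 feeder fibroblast genes, 3 were at 0 in double positive cells and the summed levels were 11.6 to 115.4 CPM in bulk and 48.3 to 139.6 CPM in double positive cells. The part of cell makeup in the results below was not tested. In such pooled cells, fewer cells with a contact and a weaker contact per cell cannot be told apart.

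Promoter sequence is shown for the 3 genes whose read pairs were higher in double positive cells (Pou5f1, Klf4 and Tdgf1) and for the 3 others whose 250 bases before the main start site held one of 5 searched motifs. The sequences are from mm9, on the strand of the gene and 5′ to 3′. Parts that overlap an annotated exon are left out, and motif matches are in capitals.
Pou5f1, chr17:35642732-35642981, plus strand: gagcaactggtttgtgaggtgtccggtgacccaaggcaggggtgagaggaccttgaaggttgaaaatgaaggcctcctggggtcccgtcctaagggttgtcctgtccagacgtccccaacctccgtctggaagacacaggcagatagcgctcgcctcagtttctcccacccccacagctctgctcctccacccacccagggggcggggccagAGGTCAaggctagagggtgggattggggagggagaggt
Klf4, chr4:55545348-55545588, minus strand: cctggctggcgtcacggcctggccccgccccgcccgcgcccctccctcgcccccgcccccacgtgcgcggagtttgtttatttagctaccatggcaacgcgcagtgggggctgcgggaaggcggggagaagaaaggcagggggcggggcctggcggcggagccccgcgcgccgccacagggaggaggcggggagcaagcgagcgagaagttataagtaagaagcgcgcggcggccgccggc
Tdgf1, chr9:110848663-110848912, minus strand: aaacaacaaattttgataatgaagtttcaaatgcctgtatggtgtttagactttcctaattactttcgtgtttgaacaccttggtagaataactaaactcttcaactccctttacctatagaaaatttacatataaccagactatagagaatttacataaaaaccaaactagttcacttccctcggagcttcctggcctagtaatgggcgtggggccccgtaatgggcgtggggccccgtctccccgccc
Nanog, chr6:122657336-122657506, plus strand: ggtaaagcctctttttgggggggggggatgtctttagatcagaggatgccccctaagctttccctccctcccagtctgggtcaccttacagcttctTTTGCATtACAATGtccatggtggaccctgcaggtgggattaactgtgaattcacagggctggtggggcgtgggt
Zfp42, chr8:44392364-44392613, minus strand: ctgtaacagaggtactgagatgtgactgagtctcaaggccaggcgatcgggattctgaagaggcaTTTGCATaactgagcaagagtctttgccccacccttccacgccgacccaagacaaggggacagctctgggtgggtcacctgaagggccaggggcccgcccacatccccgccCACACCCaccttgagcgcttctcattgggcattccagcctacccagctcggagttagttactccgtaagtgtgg
Lin28a, chr4:133574757-133575006, minus strand: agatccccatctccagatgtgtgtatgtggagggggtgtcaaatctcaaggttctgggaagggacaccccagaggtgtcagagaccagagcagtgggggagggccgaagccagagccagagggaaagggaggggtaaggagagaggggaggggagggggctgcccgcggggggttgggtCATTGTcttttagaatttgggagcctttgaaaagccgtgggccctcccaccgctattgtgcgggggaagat

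Motifs were searched on both strands over the same 250 bases of 22367 coding genes. The octamer core TTTGCAT, read by POU factors such as Pou5f1, occurred at Nanog, beginning 154 bases before the start site, and at Zfp42, 185 bases before it, and in 3.88% of all promoters. The SOX motif ACAATG followed 1 base after the octamer core of Nanog and occurred in reverse at Lin28a, with a share of 8.90% over all promoters. The nuclear receptor half-site AGGTCA, to which nuclear receptors such as retinoic acid receptors can bind, began 38 bases before the start site of Pou5f1 and was in 12.3% of promoters. The KLF motif GGGTGTG occurred in reverse at Zfp42 (6.98% of all), and the GATA motif AGATAA at none of the 10 genes (9.14% of all). These matches are letters in a window and say nothing on binding. The printed stretches of Nanog, Klf4, Zfp42 and Lin28a lay inside an anchor, whereas those of Pou5f1 and Tdgf1 lay between anchors.

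Over the 10 genes together, the bulk libraries had summed levels of 496.5 to 876.1 CPM (median 717.6) and the double positive libraries 910.7 to 1274 CPM (median 1072). Beside them stand all coding start sites together, with 49.8% of bulk and 94.9% of double positive read pairs. Sall4 alone gave 58.6% of the bulk read pairs and 31.1% of the double positive ones. Without Sall4 the sums were 211.7 to 367.3 CPM in bulk and 613.8 to 965.5 CPM in double positive cells.

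Of the 10 genes, 7 had an anchor in double positive loops, namely all but Nanog, Klf2 and Esrrb, and only 8 of the 26 anchors at these start sites appeared there. Of the 7 genes that passed the filter of at least 20 read pairs and at least 5 libraries with a read pair, 3 were higher in double positive cells (Pou5f1, Klf4 and Tdgf1), 3 were lower (Esrrb, Sall4 and Lin28a) and Tbx3 was not called. Esrrb passed the filter through bulk alone, on anchors that no double positive loop used, so its direction was given by the filter. Over all tested genes 20.6% were called higher and 42.8% lower. The median log2 fold change of the 7 was -0.73, beside -0.52 for all tested genes. Nanog, Klf2 and Zfp42 had too few read pairs to be tested. The plot of levels by library shows all 10 genes.

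**Figure D1:**
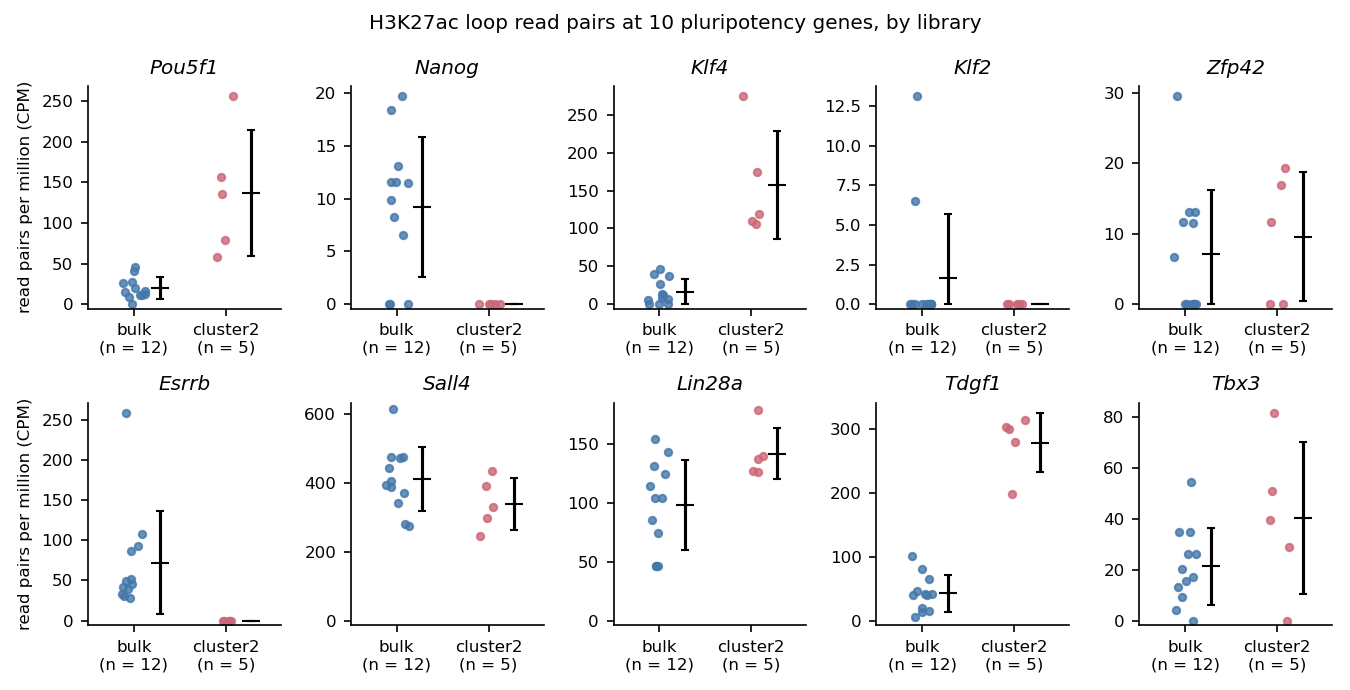
Loop read pairs (CPM, linear axis from 0, a separate scale for each gene) at the 10 pluripotency genes in 12 bulk libraries and 5 double positive libraries (cluster2). Points are libraries; black marks are means with SD, drawn no lower than 0. All 5 double positive libraries lie above all bulk libraries for Pou5f1, Klf4 and Tdgf1, as for 36.4% of all tested genes. All lie at 0 for Nanog, Klf2 and Esrrb, as for 41.4% of all coding genes with a bulk read pair.

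Pou5f1 (ENSMUSG00000024406.9, chr17:35642982-35647721) had 30 bulk and 56 double positive read pairs. Bulk libraries ranged from 0 to 46.0 CPM with a median of 15.7, and the double positive libraries had 135.4, 255.9, 156.8, 79.2 and 57.9 CPM. Every double positive library was above every bulk library, as was the case for 36.4% of all tested genes. The means were 19.7 ± 13.4 CPM (SD, n = 12) and 137.0 ± 77.7 CPM (SD, n = 5). The log2 fold change was 1.06 (SE 0.41, adjusted p = 0.0225), 1.58 above the median gene. The call rested on the second double positive library, since without it the log2 fold change was 0.69 (adjusted p = 0.188). It was also lost on shared anchors, that is, with loops limited to anchors used in both groups (0.97, adjusted p = 0.0825), in libraries thinned to the smallest total (0.94, adjusted p = 0.123) and with spans of at least 20 kb (0.83, adjusted p = 0.0956). Pou5f1 has processed copies elsewhere in the genome, so reads in its exons may be placed with some uncertainty.

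Klf4 (ENSMUSG00000003032.7, chr4:55540013-55545347) had the highest log2 fold change of the 7 tested genes, with 26 bulk and 59 double positive read pairs. Bulk libraries held 0 to 46.0 CPM (median 9.88), 3 of them at 0, and the double positive libraries held 110.0, 174.5, 274.3, 118.8 and 106.2 CPM. Every double positive library was above every bulk library, as for 36.4% of all tested genes. The means were 16.1 ± 16.7 CPM (SD, n = 12) and 156.8 ± 71.3 CPM (SD, n = 5). The TMM log2 fold change was 1.45 (SE 0.45, adjusted p = 0.00498). When loops spanning less than 20 kb were left out it was 0.61 (adjusted p = 0.309).

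Tdgf1 (ENSMUSG00000032494.8, chr9:110842114-110848662) had 63 bulk and 116 double positive read pairs. Bulk levels lay between 5.75 and 101.3 CPM (median 40.8), and double positive levels were 279.2, 302.4, 313.5, 198.0 and 299.3 CPM. Again no bulk library reached a double positive one, as for 36.4% of all tested genes. The means were 42.6 ± 28.6 CPM (SD, n = 12) and 278.5 ± 46.7 CPM (SD, n = 5). The TMM log2 fold change was 1.02 (SE 0.33, adjusted p = 0.00796), 1.53 above the median gene. With library size alone it was 2.77 (adjusted p = 6.34e-10). Most of these read pairs used an anchor 4309 bp before the start site of Tdgf1 that lies in Lrrc2, a neighbouring gene, and within 5 kb of a start site of Lrrc2. This anchor took part in 56 of the bulk and 112 of the double positive read pairs, so the values cannot be given to Tdgf1 alone. The anchor inside Tdgf1 had 8 and 23.

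Esrrb (ENSMUSG00000021255.10, chr12:87702067-87862578) encodes an orphan nuclear receptor of the naive network. It had 9 anchors at 5 start sites, 132 bulk read pairs and none in double positive cells. The bulk libraries ranged from 27.6 to 258.6 CPM with a median of 47.7, and 45 of the 132 read pairs were in bulk library 7. The mean was 72.2 ± 64.3 CPM (SD, n = 12), and 55.2 ± 27.7 CPM (SD, n = 11) without that library. Neither fold nor p is given, because none of the 9 anchors occurs in any double positive loop, and an anchor left out when loops were called would look the same as one without contacts. No double positive read pair was seen at 21.7% of all tested genes, and every double positive library was below every bulk library at 8.93% of them.

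Nanog (ENSMUSG00000012396.5, chr6:122657507-122664651) had 14 bulk read pairs, each on a loop of its own, in 9 of 12 libraries, with a mean of 9.21 ± 6.67 CPM (SD, n = 12) and a highest level of 19.7 CPM. Klf2 (ENSMUSG00000055148.7, chr8:74842932-74845555) had 2 bulk read pairs in 2 libraries. Both genes had none in double positive cells, like 41.4% of all coding genes with a bulk read pair. Processed copies of Nanog make reads in its exons uncertain as well. Zfp42 (ENSMUSG00000051176.5, chr8:44380422-44392363) had 12 bulk read pairs in 6 libraries and 5 double positive read pairs in 3. Its double positive levels were 16.9, 11.6, 0, 0 and 19.3 CPM and its bulk levels 0 to 29.5 CPM, so the groups overlapped.

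Lin28a (ENSMUSG00000050966.2, chr4:133559245-133574756) had 158 bulk and 56 double positive read pairs. Bulk libraries held 46.0 to 153.5 CPM (median 103.8) and double positive libraries 126.9, 139.6, 137.2, 178.2 and 125.5 CPM. The ranges overlapped, although all 5 double positive libraries were above the bulk mean of 97.6 ± 38.1 CPM (SD, n = 12), and their own mean was 141.5 ± 21.4 CPM (SD, n = 5). The TMM log2 fold change was -1.24 (SE 0.28, adjusted p = 0.000196), 0.72 below the median gene, but with library size alone the sign turned to 0.51 (adjusted p = 0.119) and on shared anchors it was -0.62 and not called. The direction at Lin28a therefore depended on the scaling, while it lay below the median gene under each of these 3 scalings.

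Tbx3 (ENSMUSG00000018604.11, chr5:120120678-120134733), a T-box factor of the naive network that is also used in several early lineages, was not called. Its bulk levels were 0 to 54.1 CPM (median 18.7) and its double positive levels 50.8, 81.4, 0, 39.6 and 29.0 CPM, which overlap. The log2 fold change was -0.73 (SE 0.54, adjusted p = 0.246), with the opposite sign under library size alone (0.99) and on shared anchors (0.44).

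**Figure D2:**
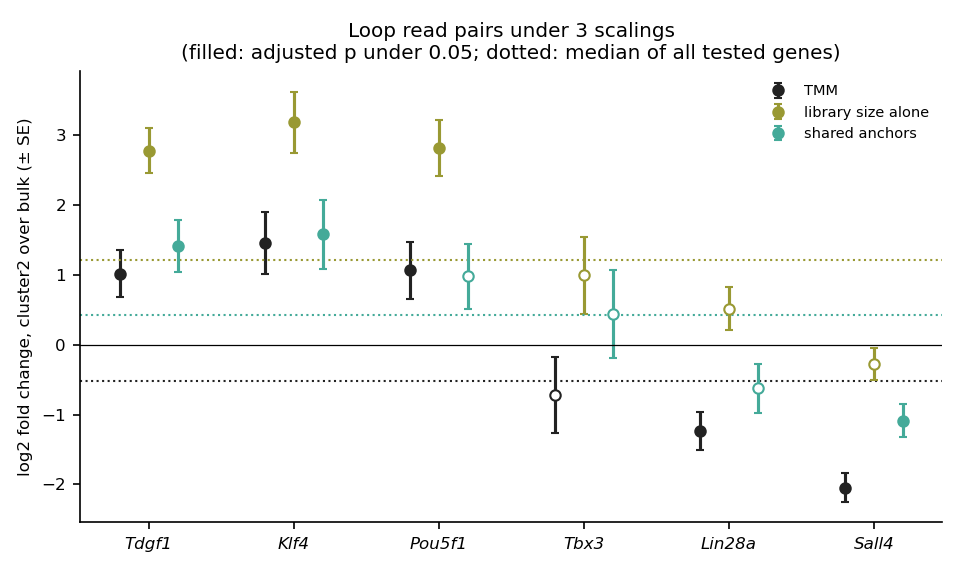
Log2 fold change of loop read pairs, double positive (cluster2) over bulk, with SE, for the 6 tested genes with read pairs in both groups, under TMM scaling, library size alone and shared anchors. Filled points have an adjusted p under 0.05, and dotted lines are the medians of all tested genes in the same colours. Tdgf1, Klf4 and Pou5f1 lie above the median gene and Lin28a and Sall4 below it under each of the 3 scalings.

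Sall4 (ENSMUSG00000027547.11, chr2:168573832-168593443) had the most read pairs, 666 in bulk and 140 in double positive cells. Bulk libraries ranged from 275.8 to 614.6 CPM (median 398.8), and the double positive libraries had 330.0, 244.3, 391.9, 297.0 and 434.5 CPM. In CPM the groups overlapped, with means of 411.1 ± 94.1 (SD, n = 12) and 339.5 ± 75.4 (SD, n = 5). The TMM log2 fold change was -2.04 (SE 0.20, adjusted p = 2.48e-10), 1.53 below the median gene, on shared anchors it was -1.09, and with library size alone -0.27 (adjusted p = 0.271). Sall4 lies on chromosome 2 beyond 150 Mb, where bulk read pairs are in excess. The 384 tested genes of that segment had a median log2 fold change of -2.37, with quartiles of -5.04 and -1.22, and 214 of them were below Sall4. Sall4 minus the median of its segment was 0.32, and -0.18 when only shared anchors were used. Its own difference and that of its segment cannot be told apart.

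Compared per kb of anchor, which allows for the different anchor lengths, the bulk order was led by Sall4 (38.6 ± 8.83 CPM per kb, SD, n = 12), followed by Lin28a (10.5 ± 4.11), Tdgf1 (6.29 ± 4.23), Pou5f1 (3.75 ± 2.54), Esrrb (3.01 ± 2.68), Klf4 (2.61 ± 2.70), Tbx3 (1.94 ± 1.38), Zfp42 (1.41 ± 1.81), Nanog (1.07 ± 0.77) and Klf2 (0.44 ± 1.11). From Pou5f1 downward neighbouring genes differed by less than 1 SD. In double positive cells the order was Tdgf1 (41.1 ± 6.89 CPM per kb, SD, n = 5), Sall4 (31.9 ± 7.08), Pou5f1 (26.1 ± 14.8), Klf4 (25.4 ± 11.5), Lin28a (15.3 ± 2.31), Tbx3 (3.67 ± 2.72) and Zfp42 (1.89 ± 1.81), with the other 3 at 0. This order changed when the length covered only the anchors used in double positive loops, a choice made after seeing the data. The levels were then 41.1 ± 6.89 for Tdgf1, 39.5 ± 8.78 for Sall4, 35.2 ± 20 for Pou5f1, 32.9 ± 4.99 for Lin28a, 25.4 ± 11.5 for Klf4, 13.8 ± 10.3 for Tbx3 and 1.89 ± 1.81 for Zfp42 (CPM per kb, SD, n = 5). Neighbours in that order from Tdgf1 to Lin28a differed by less than the larger of their SDs. All anchors were used in bulk, so the bulk order is the same either way. Most read pairs of Tdgf1 used the anchor in Lrrc2, so its place in these orders cannot be given to Tdgf1 alone. The bulk level of Sall4 stands in a segment where bulk read pairs are in excess.

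Most single loops were thin. Of the 629 loops, 455 had 1 read pair over all 17 libraries, 554 had a bulk read pair, 124 a double positive one and 49 both. The share of bulk loops also seen in double positive cells was 8.84%, beside 8.36% for all loops at coding start sites. Only 11 loops passed the filter: 9 of Sall4, 1 of Klf4 and 1 of Tdgf1. In double positive cells 2 of these were higher and 6 lower, beside 38.1% and 22.4% of the 5369 tested loops, whose median log2 fold change was 0.78. Of the 6 lower loops, 5 ended on a partner anchor absent from all double positive loops.

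The called loop of Klf4 joined its promoter anchor (chr4:55542474-55548656) with an anchor 16.8 kb away, from middle to middle, on the 3′ side of the gene (chr4:55527099-55530483), outside any annotated coding gene. It had 1 read pair in each of 2 bulk libraries, 2 in all, and 6, 8, 7, 4 and 4 in the double positive libraries. All double positive counts were above the highest bulk count. The log2 fold change was 3.03 (SE 0.72, adjusted p = 9.92e-05), and the loop held 49.2% of the double positive read pairs of Klf4. The other partners of Klf4 in double positive cells were few: 118.8 kb before the gene (chr4:55662664-55666086; 2 bulk and 16 double positive read pairs), 182.7 kb after it at Rad23b (3 and 7), 239.1 kb after it (1 and 5), and 2 more with 1 read pair each. Of its 6 double positive partners 5 also had a bulk read pair.

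The called loop of Tdgf1 joined the anchor inside the gene (chr9:110845884-110848028) with the anchor in Lrrc2 (chr9:110852971-110857598), over a span of 8.33 kb. It had 1 read pair in bulk and 4, 4, 2, 2 and 7 in the double positive libraries, with a log2 fold change of 3.01 (SE 0.75, adjusted p = 0.000293). From the Lrrc2 anchor, further double positive read pairs reached, among others, an anchor 134.7 kb farther away from Tdgf1 (chr9:110986957-110993034; 1 bulk and 16 double positive read pairs), Pth1r (2 and 12), Als2cl and Tmie (2 and 11) and Lrrfip2 (0 and 7). These loops were too thin to be tested. At Tdgf1 the partner had a start site within 5 kb for 82.8% of read pairs in double positive cells and 38.1% in bulk, or 75% of the 20 bulk read pairs on shared anchors.

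At Pou5f1 the double positive read pairs were spread over 32 loops, 26 of them with 1 read pair. The leading partner was an anchor 8.60 kb beyond the promoter anchor at Cchcr1 and Tcf19 (chr17:35652243-35655256), with 1 bulk read pair and 2, 6, 1, 1 and 2 double positive ones. The next was H2-Q7, 66.8 kb before the gene, with 3 bulk and 7 double positive read pairs, the latter in all 5 libraries. It was also the bulk loop with most read pairs. The partner lay at a start site for 98.2% of read pairs in double positive cells and 83.3% in bulk, but for all 13 bulk read pairs on shared anchors, so the direction turned. Both groups had 6 of the partners, 27.3% of the 22 bulk and 18.8% of the 32 double positive partners. Of the 22 bulk partners, 14 were anchors used in some double positive loop. Over all bulk loops at coding start sites, 8.36% were also double positive loops. That share counts loops, also at start sites without a double positive anchor, and is not a like measure.

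**Figure D3:**
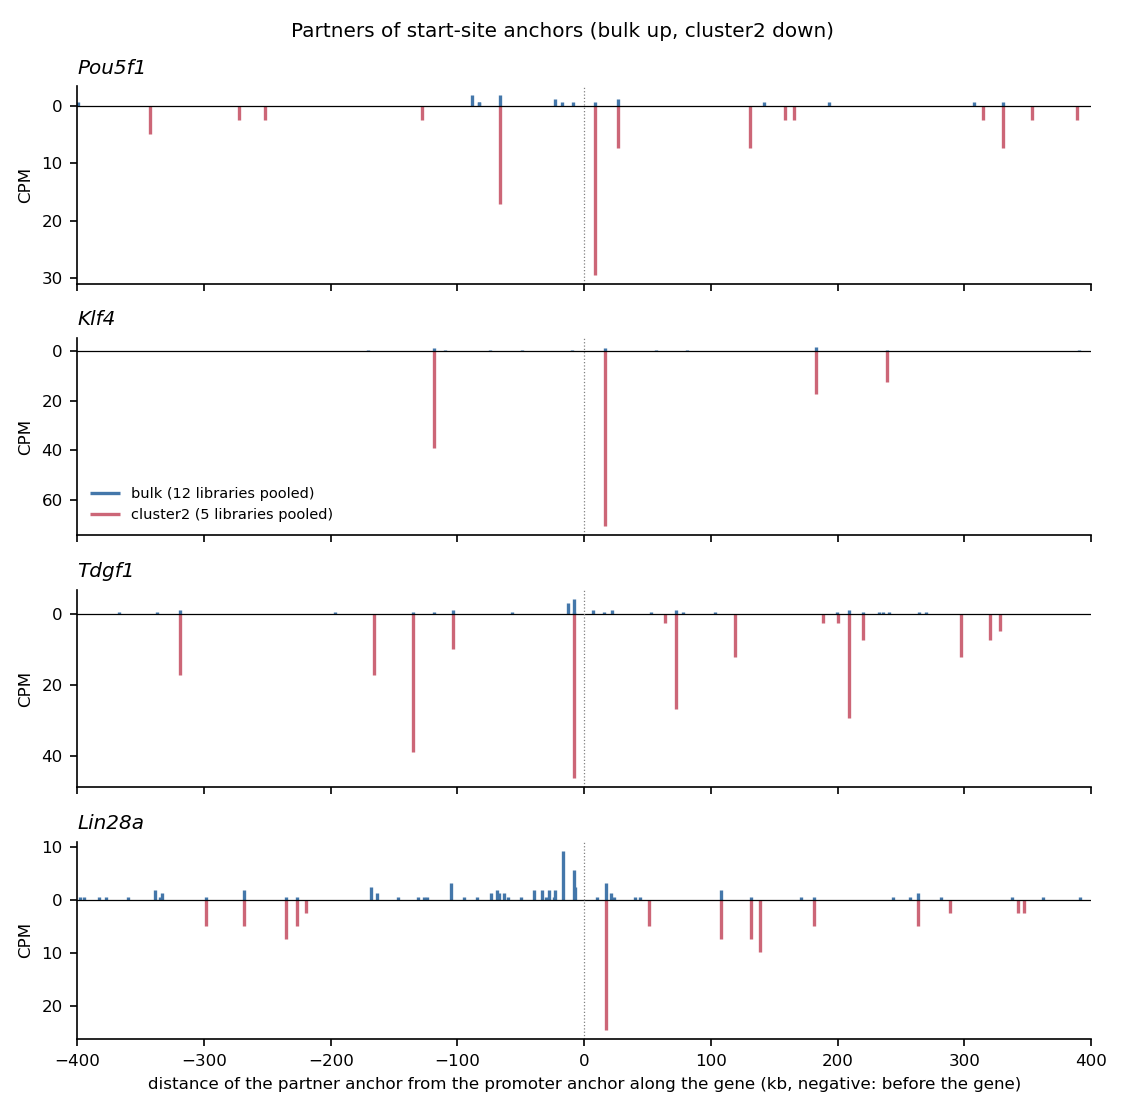
Pooled loop read pairs (CPM, vertical axis; bulk above the line, double positive cells, labelled cluster2, below it) by distance of the partner anchor from the promoter anchor along the gene in kb, for Pou5f1, Klf4, Tdgf1 and Lin28a. For Klf4 the longest line is the double positive partner at 16.8 kb, and at Lin28a the longest bulk line, 16.7 kb before the gene, stands on an anchor that no double positive loop used.

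Lin28a had 96 bulk and 28 double positive loops. The bulk loop with most read pairs led to an anchor 16.7 kb before the gene (chr4:133589635-133592950), with 15 read pairs in 9 libraries. No double positive loop used this anchor. In double positive cells the leading partner lay on the other side of the promoter anchor, with 5 bulk and 10 double positive read pairs. It was within 5 kb of a start site of Dhdds and also overlapped the 3′ end of Lin28a itself. Partners at start sites took 55.1% of the bulk and 89.3% of the double positive read pairs, but 85.4% of the 41 bulk read pairs on shared anchors.

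Sall4 was the gene with a measurable set of distal partners in bulk. Within 250 kb before the gene 33 partner anchors had a bulk read pair, with 412 read pairs in all, and 5 had a double positive one, with 75. On shared anchors 84 of the 412 bulk read pairs were left. All 6 loops called lower joined the Sall4 promoter anchor (chr2:168587154-168595745) with this stretch, none of them with a coding start site within 5 kb of the partner. The strongest in bulk, 95.1 kb before the gene (chr2:168684953-168688068), had 33 read pairs in 10 bulk libraries and 2, 1, 1, 0 and 0 in double positive cells (log2 fold change -3.10, SE 0.60, adjusted p = 1.34e-06). The other 5 had no double positive read pair, as was so for 11.8% of tested loops. These lay 14.1 kb (31 bulk read pairs in 11 libraries), 72.8 kb (30 in 11), 76.6 kb (25 in 9), 106.6 kb (22 in 10) and 54.7 kb (20 in 7) before the gene. They stood on anchors not used in any double positive loop and passed the filter through bulk alone, so their direction was given by the filter and no p is printed. With no filter on low counts none of the 6 was called, and with library size alone the loop at 95.1 kb was not (adjusted p = 0.161).

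The largest double positive contact of Sall4 lay in the same stretch. Its partner 25.5 kb before the gene (chr2:168615831-168617999) had 24 bulk read pairs in 9 libraries and 12, 8, 5, 4 and 14 in the double positive libraries, 30.7% of all read pairs of Sall4 there. It was not called (log2 fold change 0.43, SE 0.42, adjusted p = 0.371), and this value was 0.35 below the median loop (-0.35). It was called higher with library size alone (2.73, adjusted p = 1.36e-10) and in thinned libraries (1.23, adjusted p = 0.0216). The loops to Atp9a (22 bulk and 26 double positive read pairs) and Zfp64 (16 and 13) were not called either, but were called higher with library size alone (2.13, adjusted p = 7.64e-06, and 1.57, adjusted p = 0.00689). Of 177 bulk partners of Sall4, 15 (8.47%) were also double positive partners, which was 83.3% of the 18 double positive partners. The first share was near the 8.36% of all bulk loops at coding start sites, although that share counts loops and not partners. Partners at a start site took 18.3% of the bulk and 42.1% of the double positive read pairs, but 42.9% of the 140 bulk read pairs on shared anchors.

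**Figure D4:**
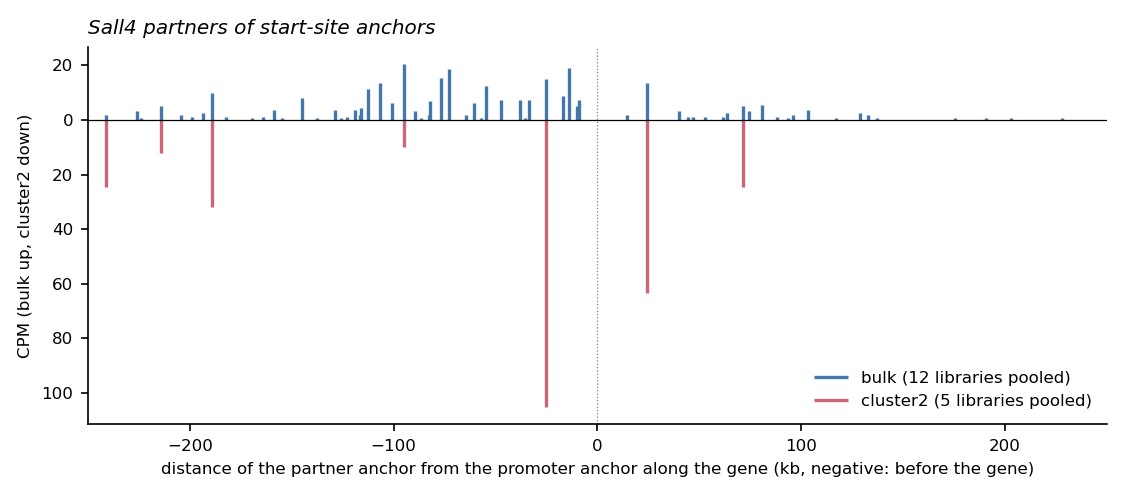
Pooled loop read pairs (CPM; bulk above the line, double positive cells, labelled cluster2, below it) of the Sall4 start-site anchors by distance of the partner along the gene in kb, within 250 kb on both sides. Bulk read pairs are spread over 33 partners before the gene and double positive read pairs stand on 5 of them, led by the one at 25.5 kb.

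Loop spans are given beside those of all promoters, with no test. Pooled over the 10 genes, the median span of a read pair was 112.7 kb in bulk and 134.7 kb in double positive cells, whereas over all loops at coding start sites it was 123.4 and 80.7 kb. By library the median was 108.9 ± 10.5 kb (SD, n = 12) in bulk and 137.7 ± 17.1 kb (SD, n = 5) in double positive cells, against 125.1 ± 6.71 and 80.4 ± 1.01 kb for all promoters. Sall4 had medians of 95.1 and 71.3 kb, Pou5f1 of 88.7 and 165.6 kb, Tdgf1 of 208.9 and 165.7 kb, Klf4 of 182.7 and 118.8 kb, Lin28a of 147.1 and 235.0 kb, and Tbx3 of 249.2 and 917.3 kb. Without Sall4 the pooled medians were 182.7 kb in bulk and 158.6 kb in double positive cells. Over loops with at least 2 read pairs these were 33.6 and 119.1 kb, so which group had the longer span depended on the loops allowed. The same was so at all coding start sites. On shared anchors the median there was 75.8 kb in bulk and 80.7 kb in double positive cells, beside 108.1 and 134.7 kb at the 10 genes. Over loops with at least 2 read pairs it was 45.9 and 60.7 kb, beside 76.6 and 118.8 kb. In these 2 settings double positive spans were longer at the 10 genes and at all start sites alike.

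A further 41 genes of the pluripotency network and its exit were read from the same fit. Of the 26 that could be tested, 4 were higher in double positive cells, 19 lower and 3 not called, with a median log2 fold change of -2.16, beside 20.6% higher and 42.8% lower among all tested genes. The 4 higher genes were Tcf7l1, a repressor of the network downstream of Wnt (log2 fold change 1.56, adjusted p = 4.12e-06; 405.6 to 489.9 CPM in double positive cells and a bulk mean of 41.6 CPM), Zscan10 (1.34, adjusted p = 0.000117), Fbxo15 (1.61, adjusted p = 0.000142) and Trim28, a co-repressor of retroelements (0.84, adjusted p = 0.0170). The 6 lower genes with the smallest p were Lefty2 and Lefty1, the inhibitors of Nodal (-5.14 and -2.17), Sall1 (-2.81), the DNA methyltransferase Dnmt3b (-2.15), the methylcytosine dioxygenase Tet2 (-3.88) and Sox2, the partner of Pou5f1 (-4.09), with adjusted p from 2.04e-09 to 3.05e-07. Sox2, which is also a neural factor, had 97 bulk and 4 double positive read pairs. Of the 19 lower genes 5, among them Lefty1, Lefty2 and Dnmt3b, lie in the distal segments of chromosomes 1 and 2 where bulk read pairs are in excess. Another limit is that 3 of the 19 (Nr5a2, Klf5 and Nodal) had no double positive read pair, as had 21.7% of all tested genes. These 3 passed the filter through bulk alone, so their direction was given by the filter, although they count in the 19 and in the median. Some of the 19, among them Tet1 and Stat3, had a higher mean CPM in double positive cells than in bulk. With library size alone the counts were 8 higher and 9 lower, so they depended on the scaling. Dnmt3b and Lefty1 were not called with library size alone (-0.40 for both), nor Dnmt3b on shared anchors (-0.49, adjusted p = 0.380). Trim28 was not called on shared anchors (0.35, adjusted p = 0.335), nor over libraries 1 to 5 of both groups with the replicate number as a block (0.62, adjusted p = 0.0742) or without it (0.46, adjusted p = 0.213).

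**Figure D5:**
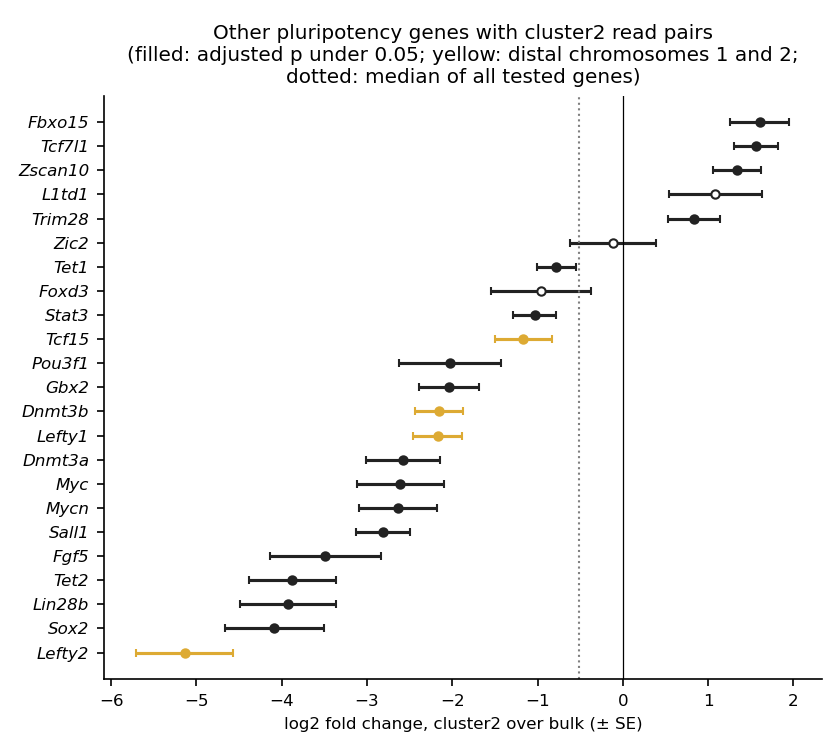
Log2 fold change of loop read pairs, double positive (cluster2) over bulk, with SE, for the 23 tested genes of the further pluripotency list that had double positive read pairs. Filled points have an adjusted p under 0.05, yellow points lie in the distal segments of chromosomes 1 and 2, and the dotted line is the median of all tested genes (-0.52). Fbxo15, Tcf7l1, Zscan10 and Trim28 are the filled points above 0.

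Across the 17 libraries, the genes outside 1 Mb whose log2(CPM + 1) followed a member most closely were Scamp5 and Gmfg for Pou5f1 (Pearson r = 0.93 and 0.92), Cox5a and Slc38a2 for Klf4 (0.94 and 0.93), Zrsr1 and Mif4gd for Tdgf1 (0.95 and 0.95), Rpgrip1l and Ctns for Esrrb (0.98 and 0.98), Csad and Ephx3 for Lin28a (0.89 and 0.87), Ptprv and Dctd for Tbx3 (0.83 and 0.80), and Pou2f2 and 2410127L17Rik for Sall4 (0.79 and 0.71). These correlations are a description, over libraries that fall into 2 groups of different depth, and no test was made.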

How the data were processed

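H3K27ac HiChIP of 12 bulk and 5 EpCAM/CD38 double positive libraries was used. The authors aligned to mm9 (HiC-Pro), took peaks and loops from hichipper, left out replicates with few strong loops, and deposited counts: read pairs per pair of anchors, unnormalized, with only pairs that have a read pair listed. Which libraries gave each anchor set is not given in the sources used here. Of anchor edges, 100.0% of starts lay at GATC in the mm9 reference.

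Anchors that overlapped between the 17 libraries were merged into 216081, which gave 1211657 loops, and 700 read pairs inside a merged anchor were dropped. Each coding gene (GENCODE, mm9) received the read pairs of loops anchored 5 kb or less from one of its start sites, and 19244 of 22367 genes had such an anchor. The minimum for testing was 20 read pairs over all libraries and 5 libraries with at least 1. Tests were made with edgeR 4.0.16 in R 4.3.3 (TMM, quasi-likelihood test, Benjamini-Hochberg over all 14115 genes or 5369 loops, adjusted p under 0.05). The procedure was tested on simulated data in which 200 features changed, as many raised as lowered. Such data cannot test the scaling between groups that use unlike anchors. Python 3.11.15, numpy 2.4.6 and pandas 2.3.3 served for the rest, and DESeq2 1.42.0 for an alternative.

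The 10 genes and the marker and pluripotency lists were chosen with earlier results of these data known. Named loops are, per gene, those with most read pairs in each group and those called, at most 5 by p; other partners were chosen after their values were seen. From the further list, called genes are named by p, at most 6 in each direction. For each tested gene the 2 most correlated genes are named. Alternatives are in the closing section. PCR reads are not independent molecules. In a chi-square test of counts, none of the 66 bulk and 10 double positive pairs of libraries agreed within sampling noise. The chi-square per degree of freedom was 1.39 to 3.81 in bulk and 1.09 to 1.19 in double positive pairs. The latter stood closer to sampling noise. Libraries 1 to 5 of the groups share numbers. Deviations of same-numbered libraries correlated only between -0.01 and 0.01, so no pairing by number was seen. Counts this thin could hide a pairing.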

Additional observations from a re-analysis of the deposited data

Results flagged for a closer look

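Of the 7 tested groups of double positive levels, 1 had a library that stood apart. At Lin28a, double positive library 4 had 178.2 CPM, while the other 4 lay between 125.5 and 139.6 CPM, and its gap to the nearest of them was 0.73 of the whole range, above Dixon's limit of 0.71 for 5 libraries. Chance alone marks about 1 in 20 such groups. The call at Lin28a did not rest on it, since the log2 fold change stayed between -1.30 and -1.19 with any 1 library left out.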

How the results depend on the processing

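Several counts of calls moved with the scaling and with the anchors allowed. For the 10 genes, the 3 higher calls became 1 with spans of at least 20 kb, and the 3 lower calls became 1 with library size alone and 1 on shared anchors. Of loops, 2 higher turned into 5 with library size alone, 0 at a minimum of 50 read pairs (1 loop tested), 0 with spans of at least 20 kb and 1 with the replicate block. The 6 lower loops became 0 at that minimum, 0 without a filter, 0 in thinned libraries, 1 on shared anchors and 0 without distal chromosomes 1 and 2, where Sall4 lies. For the further list, 4 higher and 19 lower became 8 and 9 with library size alone, 30 lower without a filter, 12 in thinned libraries and 9 on shared anchors. Fewer features were tested in several of these settings. For the others, the cause was not tested.

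With library size alone the sign turned at Lin28a (0.51), Tbx3 (0.99) and the Sall4 loops to Atp9a (2.13) and Zfp64 (1.57), both then called higher, as was the loop 25.5 kb before Sall4 (2.73). Shared anchors turned Tbx3 (0.44) and the Atp9a loop (0.13). That loop also turned without a filter (1.13), in thinned libraries (0.19), with spans of at least 20 kb (0.31), and without bulk replicate 3 (0.013) or 9 (0.038), its values with a library left out running from -0.43 to 0.038. The Zfp64 loop turned without a filter (0.60), and the loop 25.5 kb before Sall4 at the higher minimum (-0.036). The other 5 tested genes and 8 tested loops kept their sign in every alternative run. Among these, Esrrb and the 5 Sall4 loops without a double positive read pair could not turn, since the filter gave their direction. Sall4 minus its segment was -0.18 on shared anchors. The bulk median span was 76.6 kb over loops with at least 2 read pairs.

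The replicate block, over libraries 1 to 5 of both groups, left 3 higher and 3 lower genes, and the Tdgf1 loop (2.61, adjusted p = 0.0595) and Trim28 (0.62, adjusted p = 0.0742) missed the threshold. Leaving out each library in turn gave 2 to 3 higher and 3 lower genes, 2 higher and 6 lower loops, and 4 to 5 higher and 19 lower list genes. Single loops with 1 read pair limit what this depth can show.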
